A study of Mus musculus with 4 samples.

Results

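Sterol and fatty acid uptake by enterocytes was followed through 10 genes, Npc1l1, Scarb1, Cd36, Soat1, Soat2, Npc1, Npc2, Fabp1, Fabp2 and Stard4. They were listed for their roles in lumenal lipid uptake, movement of sterol inside the cell and sterol esterification. All 10 were found among the 30284 genes with summed estimated counts, and all 10 passed the filter on low counts that left 13602 genes for testing. Organoids, which are epithelial cultures grown in Matrigel, came from small-intestinal crypts of 2 male C57BL/6J mice with an age label of 9 weeks. Each mouse gave 1 culture with the vehicle DMSO and 1 culture with 2 µM GW3965, a compound that activates the liver X receptors (LXR), collected after 6 h. There were therefore 4 libraries, 2 per treatment, and no label names a genetic change or a second culture of the same mouse and treatment. The p-values below rest on the spread between these libraries alone, with the variance of each gene drawn in part from other genes. In edgeR's fit with the mouse as a block, a gene's own spread does not enter.

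Dietary cholesterol enters enterocytes through NPC1L1, the brush-border importer blocked by the drug ezetimibe, and sterol freed in lysosomes leaves through NPC2 and NPC1. STARD4 carries sterol through the cytosol, and SOAT1 and SOAT2 esterify it in the endoplasmic reticulum for storage or for export in chylomicrons. SCARB1 and CD36 are scavenger receptors for lipoprotein lipids and long-chain fatty acids, and FABP1 and FABP2 bind fatty acids in the cytosol. LXRs are oxysterol receptors whose best-known intestinal targets are sterol exporters, while SREBP2 is the factor that drives sterol synthesis and the low-density lipoprotein receptor when cell sterol is low.

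RefSeq promoters on the build GRCm38.p6 were matched for 6 of the 10 genes, namely Npc1l1, Cd36, Soat1, Npc2, Fabp1 and Fabp2. Of Scarb1, Soat2, Npc1 and Stard4 no promoter is printed. Shown are the 250 bases before the RefSeq start of the importer gene and of the pair of fatty acid binding protein genes, chosen because they are the apical importer and the most abundant of the 10 genes. Each runs 5′ to 3′ on the gene's own strand, and capitals mark matches on either strand to the nuclear receptor half-site AGGTCA, the HNF1 half-site GTTAAT, the CDX2 site TTTATG, the TATA box letters TATAAA or the box named CCAAT.
Npc1l1, chr11:6230246-6230495, minus strand: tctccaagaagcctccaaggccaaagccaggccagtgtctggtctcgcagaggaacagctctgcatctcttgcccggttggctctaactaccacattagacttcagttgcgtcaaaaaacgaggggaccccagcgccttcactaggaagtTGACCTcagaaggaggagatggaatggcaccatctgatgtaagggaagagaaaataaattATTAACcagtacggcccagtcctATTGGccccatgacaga
Fabp1, chr6:71199629-71199878, plus strand: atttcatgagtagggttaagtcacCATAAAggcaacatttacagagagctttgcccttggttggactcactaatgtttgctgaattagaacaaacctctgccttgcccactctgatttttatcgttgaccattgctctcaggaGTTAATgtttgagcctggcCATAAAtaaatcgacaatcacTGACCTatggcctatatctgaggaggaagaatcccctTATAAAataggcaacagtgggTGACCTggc
Fabp2, chr3:122894822-122895071, plus strand: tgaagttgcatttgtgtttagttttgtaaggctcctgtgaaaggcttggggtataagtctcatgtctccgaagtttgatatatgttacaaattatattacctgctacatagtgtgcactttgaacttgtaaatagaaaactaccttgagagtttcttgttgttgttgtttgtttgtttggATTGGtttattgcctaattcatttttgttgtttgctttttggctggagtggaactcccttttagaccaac
A match may lie on the printed strand or, read backwards, on the opposite one. The Npc1l1 window held AGGTCA (printed as TGACCT) 100 to 95 bases before the start, GTTAAT 40 to 35 bases before it and CCAAT 17 to 13 bases before it. The Fabp1 window held AGGTCA at 67 to 62 and at 9 to 4 bases before the start, TTTATG at 226 to 221 and 88 to 83, GTTAAT at 107 to 102 and TATAAA at 30 to 25. In the Fabp2 window the 1 match was CCAAT, 70 to 66 bases before the start. None of the matches in these 3 windows overlapped another. The starts in RefSeq are not all those of the GENCODE coordinates printed with the genes below. The Fabp1 window reaches into the GENCODE gene. The Npc1l1 window ends before the GENCODE gene begins, and the bases between them are not shown. Distances above are from the RefSeq start.

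Over the 6 promoters, AGGTCA was found in 3, against 14.0% of 32851 RefSeq promoters of the same length. GTTAAT was found in 2 of the 6 (6.43% of all), TTTATG in 2 (10.8%), TATAAA in 1 (12.4%) and CCAAT in 5 (33.8%). The LXR element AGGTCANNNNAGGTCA, which contains the half-site, was in 0 of 6 (0.0152% of all), the direct repeat AGGTCANAGGTCA in 0 (0.0335%) and the sterol regulatory element TCACNCCAC in 0 (1.05%). A match is a description of letters, and no match says only that those letters are not in this window.

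Depth ranged from 16572359 to 19486547 estimated counts per library. One library, mouse 1 with GW3965, was unlike the others: mitochondrially encoded genes held 14.0% of its counts against 7.60 to 9.43% elsewhere, and it lay at 43.1 on a first principal component (51.3% of the variance) on which the others lay between -25.2 and -7.97. The enterocyte markers Apoa4 and Apoa1 were abundant, and all 10 listed enterocyte markers were above 1 TPM (transcripts per length and library, defined below) in every library. The 4 adipocyte markers summed to 0.0835 to 0.240 TPM, with Plin1 and Lep at 0, and the 6 mesenchymal markers to 0.448 to 1.08 TPM. Summed lymphocyte markers (7 of 7 with counts) were at 17.6 and 23.3 TPM with DMSO and at 35.2 and 20.4 TPM with GW3965 in mouse 1 and mouse 2. In bulk RNA, fewer cells of a type and less RNA per cell cannot be told apart. Of 9 listed LXR targets, a list chosen with earlier results of these data known, 9 were higher with GW3965 in both mice, as 16.1% of all genes tested were, and 6 were past the threshold, where 0.0588% of all genes were called. Abca1, a cholesterol exporter, was at 0.462 and 1.75 CPM (reads of a gene relative to library size) with DMSO and at 42.8 and 60.4 CPM with GW3965.

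The fatty acid binding proteins were by far the most abundant of the 10 transcripts per length. In TPM, which scales counts by transcript length and library, Fabp1 had a mean of 1552 over the 4 libraries (range 1166 to 1966) and Fabp2 1102 (954 to 1472). In single libraries they ranked from 76 to 142 (Fabp1) and from 114 to 174 (Fabp2) among all genes, and together held 89.2 to 94.1% of the summed TPM of the 10 genes. The ranges of the pair overlapped, although Fabp1 was above Fabp2 within each library, by 1.14 to 1.89 times.

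Stard4 (mean 67.8 TPM, range 50.3 to 85.3) and Soat2 (67.1, 63.3 to 71.4) came next and overlapped. The Stard4 total includes short transcripts, which count for more in TPM and are described with the isoforms below. Npc1l1 (33.9, 25.5 to 39.7), Soat1 (31.4, 22.5 to 38.6) and Npc2 (30.6, 27.5 to 33.1) formed a group with overlapping ranges, below Soat2 and above Npc1. Npc1 (12.4, 8.89 to 15.3) and Scarb1 (4.63, 3.73 to 5.54) followed, with ranges apart from their neighbours. Cd36 was near the limit of measurement at 0.414 TPM (0.363 to 0.523), from 21, 31, 21 and 23 estimated counts. Its level lay between the 24.1 and 28.4 percentiles of the genes with summed counts. The luminal importer Npc1l1 was thus 5.83 to 9.94 times as high as Scarb1 in TPM, and the lysosomal carrier Npc2 was 2.11 to 3.09 times as high as its membrane partner Npc1. These orders are descriptions, with no test.

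**Figure D1:**
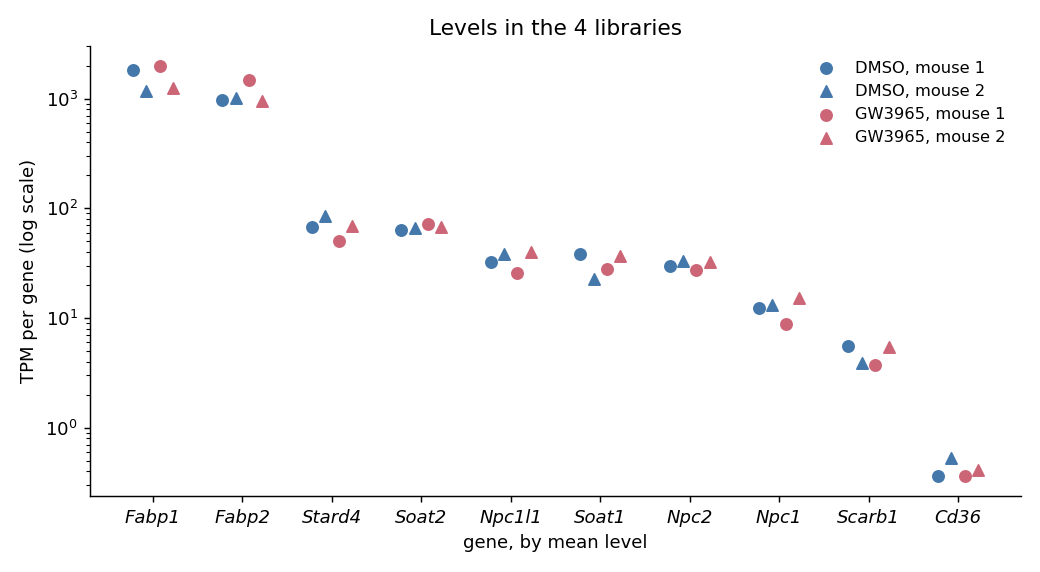
TPM of the 10 genes on a log axis, 1 point per library, with colour for treatment and shape for mouse, ordered by mean level. Fabp1 and Fabp2 lie more than 10 times above every other gene in every library, and Cd36 lies under 1 TPM in all 4 libraries.

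GW3965 was compared with DMSO to ask whether an LXR agonist altered the genes of sterol and fatty acid entry within 6 h. None of the 10 was past the threshold in either direction (0 of 10 at a Benjamini-Hochberg adjusted p under 0.05 in edgeR's quasi-likelihood test), where 0.0588% of all genes tested were called (8 of 13602). At an unadjusted p under 0.05 there were also 0 of 10, against 1.05% of all genes, and DESeq2 and limma-voom each called 0 of 10. With the mouse as a block, 0 of 10 were called and 0.353% of all genes (48). The median log2 fold change of the 10 was 0.00, with 5 positive and 5 negative, and that of all genes tested was 0.00. For 8 of the 10 genes the 95% interval of the single-gene fold change lay within a 2-fold change either way, Cd36 and Fabp2 being the exceptions. A p that misses the threshold does not show that a level stayed the same.

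The groups did not overlap in CPM for 3 of the 10 genes, against 18.5% of all genes tested. Soat1 and Soat2 were higher in both GW3965 libraries than in both DMSO libraries (9.28% of all genes), and Stard4 was lower in both (9.18% of all). The log2 fold change of these 3 genes, and of no other of the 10, kept its sign with each library left out in turn, as 30.5% of all genes did. Groups that do not overlap largely fix this outcome in advance, so it is no separate evidence of direction. A library left out leaves unequal numbers per mouse, so a difference in level between the mice enters such values.

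**Figure D2:**
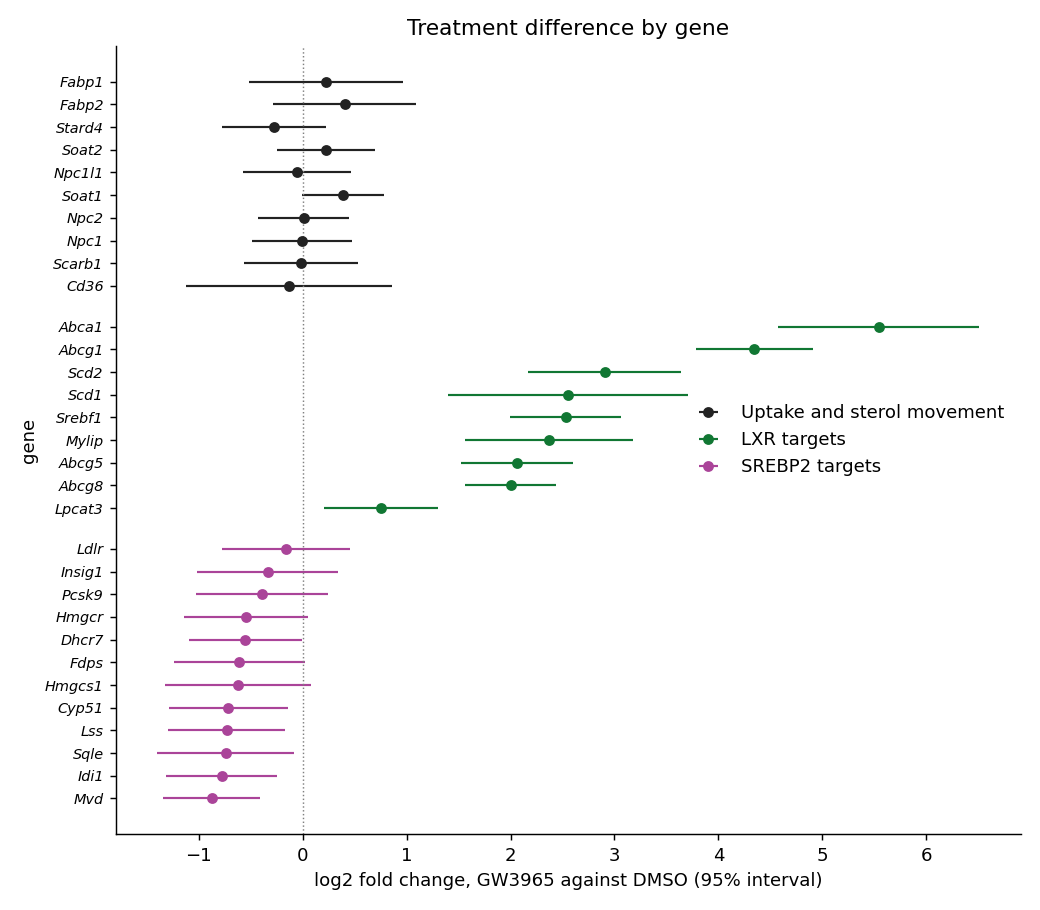
Log2 fold change, GW3965 against DMSO, with its 95% interval from edgeR's quasi-likelihood fit on 2 libraries per treatment, for the 10 uptake and sterol movement genes (black), 9 LXR targets (green) and 12 SREBP2 targets (purple). Every interval of the 10 genes contains 0, those of the 9 LXR targets lie above 0, and those of the SREBP2 targets have points below 0.

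Of the 3 genes of entry at the cell surface, Npc1l1, Scarb1 and Cd36, Npc1l1 had the most counts. In CPM scaled by TMM (CPM taken over an effective library size), Npc1l1 (chr11:6211013-6230143, minus strand) was at 128 and 160 with DMSO and at 119 and 157 with GW3965 in mouse 1 and mouse 2. Mouse 2 was the higher in both treatments, and the treatments overlapped. Its means were 144 ± 22.6 and 138 ± 26.6 CPM (SD, n = 2 per group), a fold change of 0.963 with a 95% interval of 0.671 to 1.38 (log2 fold change -0.05 ± 0.23 SE, adjusted p = 0.99986 in edgeR). The sign turned with the library left out, from -0.27 without the GW3965 library of mouse 2 to 0.13 without that of mouse 1.

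Scarb1 (chr5:125277087-125341094, minus strand), the receptor for high-density lipoprotein, was at 12.0 and 8.70 CPM with DMSO and at 9.56 and 10.9 CPM with GW3965. The GW3965 library was lower in mouse 1 and higher in mouse 2, within the range of the DMSO libraries. The log2 fold change was -0.02 ± 0.25. Cd36 (chr5:17781690-17888801, minus strand), a fatty acid translocase, was at 1.08 and 1.64 CPM with DMSO and at 1.28 and 1.21 CPM with GW3965, again overlapping. Its log2 fold change of -0.13 ± 0.44 had an interval from -1.12 to 0.86, which includes a 2-fold fall and not a 2-fold rise.

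Stard4, the cytosolic sterol carrier, had lower values in both GW3965 libraries than in both DMSO libraries. Stard4 (chr18:33199355-33213862, minus strand) was at 153.3 and 176 CPM with DMSO and at 120.0 and 152.9 CPM with GW3965. The GW3965 library was the lower in each mouse, but the higher GW3965 value, 152.9, all but met the lower DMSO value, 153.3. Its means were 165 ± 16.3 and 136 ± 23.3 CPM (SD, n = 2 per group), a fold change of 0.828 (95% interval 0.585 to 1.17), and within mouse 1 and mouse 2 the log2 differences were -0.35 and -0.21. The log2 fold change of -0.27 ± 0.22 did not pass (adjusted p = 0.99986, edgeR), and leaving out a GW3965 library gave -0.11 (mouse 1 out) or -0.46 (mouse 2 out). Stard4 is itself a target of SREBP2, and whether this bears on its values here was not tested. The 12 other listed SREBP2 targets, enzymes of sterol synthesis, the low-density lipoprotein receptor and regulators, were all negative, 11 of them in both mice (17.0% of all genes tested), with a median log2 fold change of -0.62 and 0 of 12 called. At an unadjusted p under 0.05, 6 of these 12 were lower, against 0.382% of all genes tested. Mvd, a decarboxylase of the mevalonate pathway, was at 75.8 and 92.0 CPM with DMSO and at 39.4 and 51.9 CPM with GW3965, and Idi1, the isomerase of the same pathway, was at 255 and 338 CPM with DMSO and at 163 and 183 CPM with GW3965. The list was chosen with earlier results of these data known and is no independent evidence of direction. When the GW3965 library of mouse 2 was left out, 6 of the 12 were called lower (0.191% of all genes in that fit) at a median of -0.97, and 0 of 12 were called in the fits that left out any of the other 3 libraries. In those fits the median was -0.28 (GW3965 of mouse 1 out), -0.75 (DMSO of mouse 1 out) and -0.50 (DMSO of mouse 2 out).

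The lysosomal pair had log2 fold changes close to 0. Npc1 (chr18:12189692-12236400, minus strand), the membrane exporter of lysosomal sterol, was at 57.1 and 63.9 CPM with DMSO and at 49.1 and 71.2 CPM with GW3965. The GW3965 libraries were the lowest and the highest of the 4. Its log2 fold change was -0.01 ± 0.22, with an interval from -0.49 to 0.48, and 165 of its 288 shared 31-mers were shared with Rmc1, which overlaps it on the other strand. Npc2 (chr12:84754562-84773152, minus strand), the soluble carrier that hands sterol to NPC1, was at 83.7 and 99.6 CPM with DMSO and at 92.5 and 91.8 CPM with GW3965. Both GW3965 values lay between the DMSO values, and the log2 fold change was 0.01 ± 0.20 (interval -0.43 to 0.45).

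The genes of both esterification enzymes had GW3965 values above the DMSO values in CPM, and neither passed the test. Soat1 (chr1:156424525-156474331, minus strand), the broadly expressed acyltransferase, was at 37.5 and 35.3 CPM with DMSO and at 46.8 and 48.3 CPM with GW3965. Both GW3965 libraries lay above both DMSO libraries, by 0.32 on the log2 scale in mouse 1 and 0.45 in mouse 2. The means were 36.4 ± 1.58 and 47.6 ± 1.04 CPM (SD, n = 2 per group), a fold change of 1.31 with an interval of 0.994 to 1.72. In edgeR's quasi-likelihood test its log2 fold change was 0.39 ± 0.18 (unadjusted p = 0.0545, Benjamini-Hochberg adjusted p = 0.99986), the smallest unadjusted p of the 10. The value stayed between 0.34 and 0.43 with each library left out. On the log2(TPM + 0.5) scale, on which a short transcript counts for more, it was 0.12 ± 0.30. In TPM the treatments overlapped, with Soat1 at 38.6 and 22.5 with DMSO and at 28.1 and 36.4 with GW3965.

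Soat2 (chr15:102150526-102163469, plus strand), the acyltransferase of enterocytes and hepatocytes, was at 112 and 124.3 CPM with DMSO and at 152 and 124.4 CPM with GW3965. The 2 libraries of mouse 2 were nearly equal, so the groups all but met. Within mouse 1 the log2 difference was 0.44, and within mouse 2 it was 0.0017. The means were 118 ± 8.82 and 138 ± 19.2 CPM (SD, n = 2 per group), and the log2 fold change of 0.23 ± 0.21 (adjusted p = 0.99986, edgeR) was 0.08 without the GW3965 library of mouse 1.

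Both fatty acid binding protein genes were highest in the GW3965 library of mouse 1. Fabp1 (chr6:71199827-71205023, plus strand), the liver-type protein, was at 629 and 425 CPM with DMSO and at 804 and 431 CPM with GW3965. The libraries of mouse 1 were above those of mouse 2 in both treatments, and the treatments overlapped. Its log2 fold change was 0.23 ± 0.33 (interval -0.51 to 0.97), and -0.29 without the GW3965 library of mouse 1. Fabp2 (chr3:122895072-122899506, plus strand), the intestinal-type protein, was at 698 and 781 CPM with DMSO and at 1265 and 691 CPM with GW3965. One GW3965 library was the highest of the 4 and the other the lowest. Its means were 740 ± 58.5 and 978 ± 405 CPM (SD, n = 2 per group), a fold change of 1.32 (interval 0.820 to 2.13). The log2 fold change of 0.40 ± 0.31 became -0.10 when the GW3965 library of mouse 1 was left out and 0.77 when that of mouse 2 was. That GW3965 library of mouse 1 also had the highest mitochondrial share and the highest summed lymphocyte markers, and its summed enterocyte markers were 3182 TPM against 3246 to 4589 in the other 3. The part of these differences in the Fabp1 and Fabp2 values was not tested.

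Within single mice, the log2 difference in CPM between GW3965 and DMSO had opposite signs in the mice for 5 of the 10 genes, against 66.2% of all genes tested. Soat1 and Soat2 were positive in both mice, as was Fabp1 (0.35 and 0.02), where 16.1% of all genes tested were. Npc1l1 (-0.10 and -0.02) and Stard4 were negative in both, where 17.0% of all were. In mouse 2 the 95% intervals from counting error of Soat2, Fabp1 and Npc1l1 included 0, so their signs there are open. For 4 of the 10, against 19.7% of all genes, the signs were opposite with each difference beyond its interval from counting error, which does not cover the spread between cultures. Among these, Fabp2 was at 0.86 in mouse 1 and -0.18 in mouse 2. With 1 library per mouse and treatment, the difference between the mice in response could not be tested. The signs also depend on the measure. In TPM, Soat1 was lower with GW3965 in mouse 1 (28.1 against 38.6 with DMSO). Npc1l1 was higher with GW3965 in mouse 2 on that scale (39.7 against 38.2 with DMSO).

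**Figure D3:**
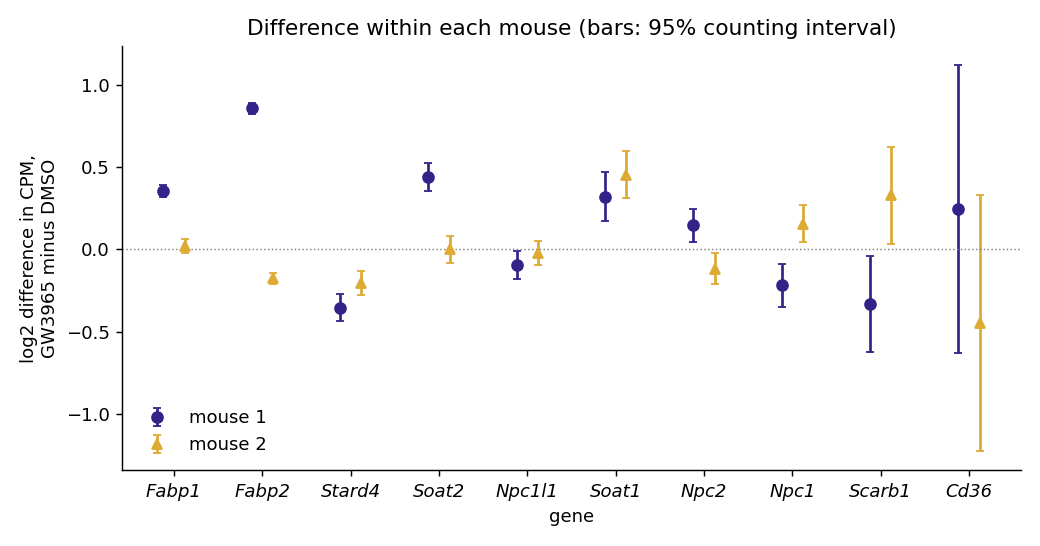
Log2 difference in CPM, GW3965 minus DMSO, of each of the 10 genes within each mouse, with bars for the 95% interval from counting error alone. Soat1 lies above 0 and Stard4 below 0 in both mice, whereas Fabp2, Npc2, Npc1 and Scarb1 lie on opposite sides of 0 with bars that do not reach it.

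Between the mice, with treatment in the model, 0 of the 10 genes were called, where 0.684% of all genes were (93 of 13602). DESeq2 also called 0 of 10. At an unadjusted p under 0.05 there was 1 of the 10, Fabp1, against 5.01% of all genes. Fabp1 had a mean of 716 CPM in mouse 1 and 428 CPM in mouse 2, a log2 difference (mouse 2 minus mouse 1) of -0.73 ± 0.30 with an adjusted p of 0.707 in edgeR. The libraries of the mice did not overlap for 3 of the 10 genes, against 41.2% of all genes. Fabp1 was lower in mouse 2, and Npc1l1 (0.36 ± 0.27) and Npc1 (0.35 ± 0.24) were higher. These edgeR values come from the fit with the mouse as a block, whose standard errors and p-values do not hold a gene's own spread. Each side is 2 cultures of 1 mouse, so the p-values do not measure the spread between mice.

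The transcripts of the 10 genes were compared because a gene total can hide a shift between isoforms. The files list 37 transcripts of these genes, of which 28 had counts and 18 were tested. None of the 18 was called in edgeR's test with or without the block, 0.0% of all 32357 transcripts tested were called, and 0 of the 18 had an unadjusted p under 0.05, against 2.61% of all transcripts. Npc1l1, Npc2, Fabp1 and Fabp2 each have 1 transcript in the files, and all Cd36 counts were on Cd36-204.

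Scarb1-201 and Soat2-201 each have an inner exon that another transcript of the gene lacks, and these exons are shown as coding sequence missing from that other form. The Scarb1 exon, number 12 of 13 in Scarb1-201, encodes the end of the receptor form known as SR-BI, and Scarb1-202, which skips it, encodes the form with another tail known as SR-BII. The Soat2 exon, number 9 of 15 in Soat2-201, is absent from Soat2-202, which is annotated as a target of nonsense-mediated decay. Both sequences are given on the transcript's strand from GRCm38, the first for its coding part of 126 bases and the second for the whole exon of 46 bases.
Scarb1 exon 12, chr5:125281108-125281233, minus strand: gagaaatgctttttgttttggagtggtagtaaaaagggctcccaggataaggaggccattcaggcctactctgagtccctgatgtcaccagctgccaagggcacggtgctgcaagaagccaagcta
Soat2 exon 9, chr15:102158554-102158599, plus strand: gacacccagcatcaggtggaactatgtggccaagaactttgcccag
Scarb1-202 received 46 of 157 estimated Scarb1 counts (29.3%, 95% Wilson interval 22.7 to 36.8%) in the GW3965 library of mouse 1. It received 0 of 234 and 0 of 164 counts in the DMSO libraries and 0 of 208 in the other GW3965 library. Counts were thus assigned to this transcript in 1 library of 4. In the annotation it has 0 stretches of 31 bases of its own, so its counts, also those of 0, come from a division of shared reads. The counts of 0 do not show that it was absent and set no limit on its share. The interval does not cover the division of reads. Scarb1-207, which retains an intron, also had its highest share in the GW3965 library of mouse 1, 12.7% against 1.71 to 3.66% elsewhere.

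Soat2-201 had 636 stretches of 31 bases that Soat2-202 lacks, and Soat2-202 had 56 of its own, so their shares rest on more sequence than the exon shown. Soat2-202 held 15.4 and 11.9% of the Soat2 counts with DMSO and 11.7 and 6.16% with GW3965 in mouse 1 and mouse 2. The GW3965 library was the lower in each mouse, and the groups all but met at 11.9 and 11.7%. Soat1 counts were divided between Soat1-201 (55.6 and 57.3% with DMSO, 43.3 and 60.3% with GW3965) and the longer Soat1-207 (27.7 and 32.8%, 43.7 and 27.0%). The GW3965 library of mouse 1 had the lowest share of the first and the highest share of the second, while that of mouse 2 had the reverse. The short Soat1-206, of 366 bases, held 4.66 to 10.1% of the Soat1 counts but 37.4 to 56.9% of its TPM. Soat1-201 had 4 stretches of 31 bases of its own, Soat1-206 had 49 and Soat1-207 had 5303. The Soat1-201 counts thus come largely from a division of shared reads. Over Soat1-201 and Soat1-207 alone, Soat1 was at 9.61 and 8.99 TPM with DMSO and at 9.04 and 13.2 TPM with GW3965. Soat2-201 was 4.70 to 6.66 times as high as these in the same library, against 1.64 to 2.92 times for the gene totals. Stard4-201, of 5097 bases, held 80.8 to 85.2% of the Stard4 counts. It was at 28.8 and 29.7 TPM with DMSO and at 18.1 and 28.0 TPM with GW3965, against gene totals of 50.3 to 85.3 TPM. Soat2-201 was at 50.4 to 62.2 TPM, so the overlap of the gene totals of Stard4 and Soat2 does not hold for these transcripts. Intervals cover counting error only.

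**Figure D4:**
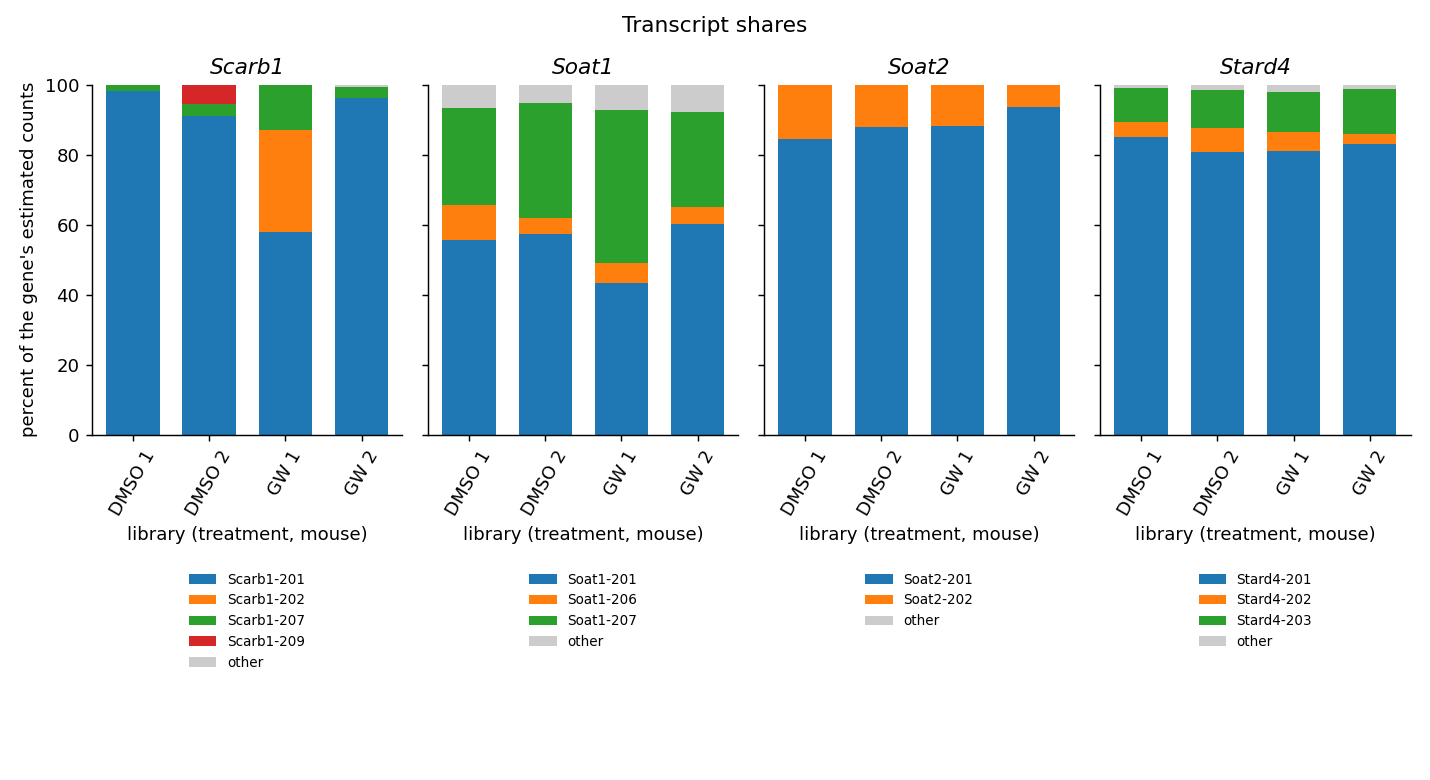
Share of each gene's estimated counts, in percent, by transcript in the 4 libraries, for Scarb1, Soat1, Soat2 and Stard4, with GW for GW3965 and the mouse number after the treatment. Scarb1-202 appears in the GW3965 library of mouse 1 alone, at 29.3%, and Soat2-202 makes up 6.16 to 15.4% of Soat2.

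The partners of the 10 genes in the same pathways were also not past the threshold. Of all 13602 genes tested, 6795 had a negative log2 fold change and 6807 a positive one. Of 14 genes for NPC1L1 endocytosis and recycling, 0 were called and 13 were negative, with a median log2 fold change of -0.09, which was -0.32 in mouse 1 and 0.05 in mouse 2. Among them Lima1, which links NPC1L1 to the motor that recycles it, was at 447 and 401 CPM with DMSO and at 294 and 412 CPM with GW3965. Of 8 genes that handle lysosomal sterol or lipids, 0 were called and 8 were negative, 5 of them in both mice (17.0% of all genes tested). Their median was -0.14, with -0.31 in mouse 1 and -0.04 in mouse 2. Lipa, the lysosomal acid lipase, was at 59.9 and 53.0 CPM with DMSO and at 45.0 and 50.1 CPM with GW3965. Of the 7 tested genes of the STAR-related and Aster families beside Stard4, 0 were called, 6 were positive and the median was 0.10. Gramd1b, an Aster protein that moves sterol from the plasma membrane, was at 27.0 and 39.7 CPM with DMSO and at 36.4 and 43.8 CPM with GW3965. The 11 tested oxysterol-binding protein genes had a median of -0.04, the 6 other tested lipid-binding genes 0.01 and the 10 genes of esterification and lipoprotein assembly 0.03, with 0 called in each. Among these Dbi, the acyl-CoA binding protein, was at 356 and 424 CPM with DMSO and at 567 and 397 CPM with GW3965. Dbi was highest in the GW3965 library of mouse 1, whereas Rbp2 of the same list was lowest there. Rbp2 was at 396 and 510 CPM with DMSO and at 385 and 467 CPM with GW3965.

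The deposited log2 CPM table held 9 of the 10 genes among its 8524, without Cd36. In it the treatment groups did not overlap for the same 3 genes, Soat1 (difference of means 0.31), Soat2 (0.22) and Stard4 (-0.22), against 29.5% of all genes in that table. It differed most from the counts in the mice. The log2 difference of Fabp1 between mouse 2 and mouse 1 was -0.08 in the deposited table and -0.73 in the log2 CPM computed from the counts. Npc1l1 gave 0.04 and 0.36, and Npc1 gave 0.03 and 0.35. Over 8451 genes in both, the SD of that difference was 0.0331 in the deposited table and 0.276 from the counts, while the SD of the treatment difference was 0.140 and 0.183. The scaling behind that table was not given in the sources used here, and no test was run on it.

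**Figure D5:**
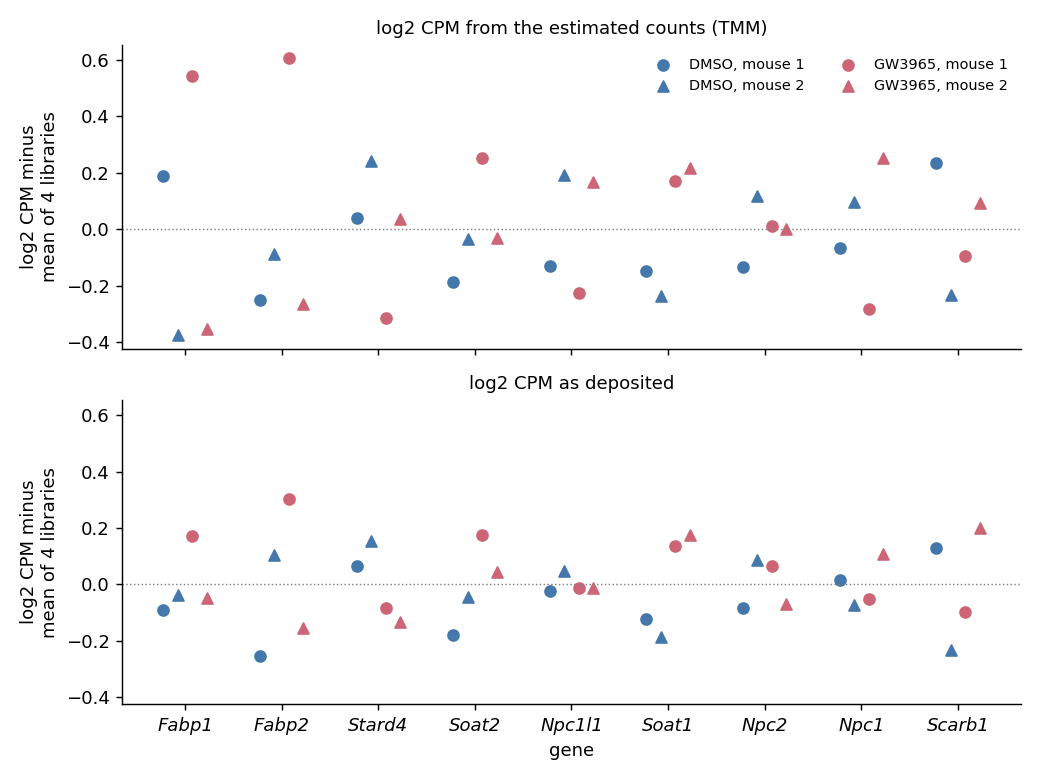
Log2 CPM of 9 of the 10 genes in each library, less the mean of the 4 libraries, from the estimated counts (upper panel) and as deposited (lower panel), with colour for treatment and shape for mouse. Soat1, Soat2 and Stard4 have their treatments apart in both panels, and the circles and triangles of Fabp1 and Npc1l1, far apart above, lie closer together below.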

How the data were processed

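Poly-A RNA of 4 organoid libraries was sequenced as single-end reads of 50 bp from RNA with integrity numbers above 8, per the labels' protocols. The extraction text speaks of colon, while the tissue label and growth protocol name small-intestinal organoids, which were used here. Tools named in the submitters' processing notes are CASAVA 1.7, FastQC and kallisto, and the build is mm10. The authors deposited, per the file headers, unnormalised estimated counts per transcript and TPM per transcript, relative to the whole library. The authors also deposited the estimated counts rounded to whole counts and a table of log2 CPM. The annotation release, the use of strand and the scaling of the log2 table were not given in the sources used here.

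Of 88198 transcripts, 86119 (97.6%) matched GENCODE M21. The others, 0.685 to 0.854% of a library's counts, were left out. Estimated counts were summed per gene, rounded and tested in R 4.3.3 by the quasi-likelihood test of edgeR 4.0.16 (TMM, filterByExpr, Benjamini-Hochberg threshold 0.05), with no block (2 residual and 7.78 prior degrees of freedom). Standard errors come from the F statistic, and 95% intervals are for single genes. The labels give each mouse 1 library per treatment, which pairs the libraries, and the mouse was added as a block in a second fit (1 residual degree of freedom and an infinite prior, by which a blocked p does not hold a gene's own spread). Deviations of same-mouse libraries correlated at 0.0724 across genes. Transcripts were tested likewise. Alternatives were DESeq2 1.42.0, limma-voom (limma 3.58.1), other scalings and filters, no mitochondrial genes, the rounded table, log2(TPM + 0.5) and log2(TPM + 0.1), and each library left out. DESeq2 with the mouse as a block was chosen after seeing the data.

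The 10 genes and all lists were chosen with earlier results of these data known. All 10 are named. Of each pathway list, up to 3 genes with the smallest p (4 of LXR and SREBP2 targets) and the 1 with the highest TPM could be named, of each marker list the 2 with the highest TPM, and of the transcripts those with at least 5% of a gene's counts in a library. Marker genes at 0, Slc10a2, Osr2, Onecut2 and Cubn fall outside this rule and were chosen after their values were seen. Shared 31-mers were 0.0% for Npc1l1, Cd36, Npc2, Fabp1 and Fabp2, and 0.606 to 3.49% for the other 5 genes. All 31-mers were taken from GENCODE M21 sequences. Some transcripts had other lengths in the authors' data, among them Cd36-201 (3539 bases against 3016), Cd36-202 (3450 against 2708) and Cd36-203 (3566 against 2677). Npc2-201 (3261 against 3299) and Soat2-201 (2213 against 2208) also differed. For these the 31-mers may not be those used to assign reads.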

Additional observations from a re-analysis of the deposited data

Results flagged for a closer look

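For 4 of the 10 genes the GW3965 to DMSO difference went 1 way in mouse 1 and the other way in mouse 2, each beyond its interval from counting error. In mouse 1 and mouse 2, the log2 differences were -0.33 and 0.33 for Scarb1, -0.22 and 0.16 for Npc1, 0.15 and -0.12 for Npc2, and 0.86 and -0.18 for Fabp2. The difference between the mice was not tested, because each mouse and treatment has 1 library. Such opposite differences beyond counting error were found for 19.7% of all genes tested. Counting error does not cover the spread between cultures.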

How the results depend on the processing

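None of the 10 genes was called under any alternative run, and 0 of their transcripts were called with the mouse as a block or with any library left out. The count of genes called over the whole table moved from 8 to 48 with the replicate block, 20 with DESeq2, 20 with limma-voom, 13 with library size alone and 14 with no filter on low counts, and to between 38 and 84 with 1 library left out. The replicate block changed no call among the 10 genes. The cause of these moves was not tested. Leaving out 1 library turned the sign of 7 genes, whose log2 fold changes then ran from -0.27 to 0.13 (Npc1l1), -0.24 to 0.24 (Scarb1), -0.40 to 0.20 (Cd36), -0.30 to 0.24 (Npc1), -0.11 to 0.13 (Npc2), -0.29 to 0.61 (Fabp1) and -0.10 to 0.77 (Fabp2). Other turns of sign were at values near 0, namely 0.0009 for Scarb1 (limma-voom), 0.0014 for Npc1 (no mitochondrial genes) and, for Npc2, -0.0095 (library size alone), -0.0043 (no filter), -0.0675 (log2(TPM + 0.5)) and -0.0684 (log2(TPM + 0.1)). With 2 libraries per treatment and 21 to 31 Cd36 counts, small differences are not detectable. Fits without a library assume that the lone library varies like the others.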

Other observations

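Markers of gut region, which belong to no comparison above, were measured in all 4 libraries. Of 4 proximal markers, 0 passed the test, 3 were positive (Onecut2 0.47 ± 0.24, Cubn 0.20 ± 0.52 and Slc40a1 0.07 ± 0.26 as log2 fold changes) and Gata4 was negative (-0.17 ± 0.26). Gata4, a proximal factor, was at 325 and 274 CPM with DMSO and at 212 and 321 CPM with GW3965. The ileal markers Slc10a2, Slc51a, Slc51b and Osr2 summed to 110 and 113 TPM with DMSO and to 137 and 132 TPM with GW3965. Of these 4, 0 passed the test. Slc51a and Slc51b were higher in both GW3965 libraries than in both DMSO libraries, as 9.28% of all genes tested were. For Slc10a2 and Osr2 the treatments overlapped and the differences had opposite signs in the mice. Slc51b, a subunit of the basolateral bile acid exporter, was at 13.8 and 14.95 CPM with DMSO and at 25.3 and 16.4 CPM with GW3965 (log2 fold change 0.53 ± 0.24, adjusted p = 0.99986 in edgeR). Fabp6, the ileal bile acid binding protein of the same family as Fabp1 and Fabp2, was at 71.9 and 57.3 CPM with DMSO and at 116 and 47.3 CPM with GW3965. It was highest in the GW3965 library of mouse 1. The share of all genes that were highest in that library was not counted, so this is no evidence of a link with Fabp1 and Fabp2.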
